A study of Mus musculus with 6 samples.

Results

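The 10 genes described here encode surface proteins and enzymes that appear early in red cell development: Rhd, Rhag, Ermap, Icam4, Epor, Car1, Car2, Tfrc, Aqp1 and Add2. They were taken by gene name, as a set put together with earlier results of these data known, and all 10 were listed in every library, among 14455 gene symbols in the series. Total RNA was sequenced from bone marrow LSK cells, the lineage-negative Sca-1+ c-Kit+ fraction that holds stem cells and the earliest progenitors, from C57BL/6 mice. The 4 groups were Setd2 KO and WT cells taken 4 weeks after pI-pC ("young") and Setd2 KO and WT cells taken 8 months after it ("old"), so the WT groups are also labelled by time from pI-pC. Setd2 encodes a histone H3 lysine methyltransferase, its deletion is labelled conditional, and pI-pC is a double-stranded RNA that induces such deletions through interferon. The labels name no Cre driver, give no age at injection and do not say how many mice were pooled.

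Red cells arise from bipotent megakaryocyte-erythroid progenitors through erythropoietin-dependent colony-forming cells, which then make hemoglobin and lose most of their RNA. The Rh proteins and their partner RhAG form an ammonia channel complex in the red cell membrane, ICAM-4 and ERMAP are adhesion-type surface proteins that carry blood group antigens, and transferrin receptor brings in iron for heme. Carbonic anhydrases interconvert carbon dioxide and bicarbonate, aquaporin 1 passes water, and beta adducin ties spectrin to actin beneath the membrane. In erythroid cells many such genes are bound by GATA1 and KLF1, whose sites carry GATA and CACCC-type letters.

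RefSeq promoter sequences (build GRCm38.p6) were found for 8 of the 10 genes, all but Car1 and Car2. They are shown because 9 of the 10 genes differed in the same directions, and Tfrc did not. The 250 bases before each start were searched on both strands for 4 GATA motifs and for CCNCNCCC. The GATA motifs were AGATAA (in 9.99% of all windows), TGATAA (7.94%), AGATAG (7.71%) and TGATAG (6.35%). A GATA motif lay in 6 of the 8 genes (Rhd, Rhag, Ermap, Icam4, Epor and Add2), against 26.5% of the 32851 RefSeq windows searched. These windows do not cover every chromosome, and all windows here means these. In 5 of the 6 genes with a GATA motif, all but Add2, it lay within the last 100 bases of the window, against 10.4% of all windows. It began 31 to 67 bases before the start that the window uses. The 100-base limit was chosen after the positions were seen. A gene model took in the last 50 bases of the Rhag window, 59 of that of Icam4 and 18 of that of Ermap. The motifs of Rhag and Icam4 thus lay inside a gene model. CCNCNCCC lay in 5 genes (Add2, Aqp1, Epor, Icam4 and Tfrc), against 45.9% of windows. The share of G and C ran from 39.2% (Rhag) to 58.8% (Epor) in the windows of the 6 genes with a GATA motif. It was 62% for Aqp1 and 64.8% and 68% for the windows of Tfrc, against a median of 52.4% over all windows. The motif shares were not adjusted for it. A motif here is a match of letters and no measure of binding. The sequences run 5′ to 3′ on the gene's strand, with matches to either motif in capitals (TTATCT and TTATCA are AGATAA and TGATAA read on the other strand). For Rhag and Icam4, whose motif lies at or inside the start of a gene model, only the motif with 10 bases on each side is given.
Rhd, chr4:134864436-134864535 (+ strand): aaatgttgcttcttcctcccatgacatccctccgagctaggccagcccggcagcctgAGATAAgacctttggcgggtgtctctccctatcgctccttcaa
Rhag, chr17:40811108-40811133 (+ strand): tcctctgctcTTATCAacactataca
Ermap, chr4:119190014-119190113 (- strand): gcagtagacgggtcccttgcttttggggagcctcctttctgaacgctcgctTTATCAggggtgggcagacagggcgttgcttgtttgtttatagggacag
Icam4, chr9:21029379-21029404 (+ strand): gggtgccttcTTATCTcctgcggcca
Epor, chr9:21963577-21963676 (- strand): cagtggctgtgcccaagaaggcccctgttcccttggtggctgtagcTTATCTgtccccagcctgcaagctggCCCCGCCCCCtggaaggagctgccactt
Tfrc, chr16:32608796-32608895 (+ strand): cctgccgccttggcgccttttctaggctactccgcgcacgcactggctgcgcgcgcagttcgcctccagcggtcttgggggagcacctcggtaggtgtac
Aqp1, chr6:55336199-55336298 (+ strand): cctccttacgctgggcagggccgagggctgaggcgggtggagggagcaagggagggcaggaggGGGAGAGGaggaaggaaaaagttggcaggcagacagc
Add2, chr6:86028581-86028680 (+ strand): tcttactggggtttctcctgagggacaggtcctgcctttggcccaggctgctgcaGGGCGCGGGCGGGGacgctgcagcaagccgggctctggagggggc
The stretches of Rhd, Ermap and Epor each hold 1 GATA motif, and that of Tfrc holds neither motif. No GATA motif was found in either of the 2 RefSeq windows of Tfrc or in that of Aqp1, whose KO differences were 0.87 and -1.08, and the GATA motif of Add2 begins 234 bases before the start, outside the stretch shown.

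Values are FPKM, fragments per kilobase of transcript scaled to sequencing depth, divided by a scaling factor per library so that the typical gene is level across the 4. Values in sets of 4 are given in the order WT then KO at 4 weeks, WT then KO at 8 months. The files listed 13182 to 13327 genes per library, each at an FPKM of 0.5 or more. Differences are on the log2(scaled FPKM + 1) scale, where low genes appear to change less than they do, and 2-fold means a difference of at least 1 on that scale. No group has a second library, so nothing could be tested and each difference describes only the libraries compared. The stated intervals are 95% ranges for counting error alone, at 1 kb of transcript. They were computed from the spacing of low FPKM values and narrow for longer transcripts. In the old libraries that spacing does not settle the size of 1 fragment, and the larger of the possible sizes was used, so intervals that involve an old library may be too wide. Setd2 itself stood at 14.1, 12.4, 15.3 and 15.5. A value for the whole gene also counts exons that the deletion may spare, so it does not check the labels. Of the sorting markers, Kit ran from 41.1 to 61 and Ly6a, which encodes Sca-1, from 3.17 to 8.8. Immunoglobulin genes took up 26.7% of all FPKM in old WT, against 0.618% to 4.63% elsewhere. Xist was listed only in the old libraries and the Y-linked Eif2s3y only in the young ones, so time from pI-pC and the sex of the mice cannot be told apart here.

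The Rh pair differed most between genotypes in young cells. Rhd (ENSMUSG00000028825, chromosome 4, 134864536 to 134896172, mm10), the only Rh blood group polypeptide of mouse red cells, stood at 5.83 (WT) and 21.4 (KO) in young cells and at 10.4 (WT) and 6.36 (KO) in old cells. Young KO stood apart from the other 3 libraries, which lay between 5.83 and 10.4. The young KO to WT ratio was 3.67 (2.74 to 4.91) and the log2 difference 1.71, rank 28 of 12409 measured genes. Rhag (ENSMUSG00000023926, chromosome 17, 40811126 to 40840754), its channel-forming partner, stood at 8.06, 22.8, 10.6 and 8.12. Again young KO alone was high, with a ratio of 2.82 (2.18 to 3.65) to young WT, while old KO and young WT were nearly level. Their old KO differences were -0.63 for Rhd and -0.34 for Rhag, and the interval of the latter's ratio of 0.77 ran from 0.566 to 1.05. Rhag to Rhd ratios were 1.38, 1.06, 1.02 and 1.28. The other Rh-type channel genes, Rhbg and Rhcg, were listed in no library.

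Ermap and Icam4 also carry blood group antigens, and of these Ermap showed high and low libraries in pairs. Ermap (ENSMUSG00000028644, chromosome 4, 119175457 to 119190011), a butyrophilin-like membrane protein of erythroblasts, stood at 5.45, 12.9, 11.1 and 4.71. Young KO and old WT were the high pair, young WT and old KO the low pair, and the intervals of the ratios within each pair included 1. Its log2 differences were 1.10 in young and -1.09 in old cells, and with Car1 it was past 2-fold at both times. Icam4 (ENSMUSG00000001014, chromosome 9, 21029373 to 21030531), a ligand of integrins on macrophages and other blood cells, stood at 4.98, 8.08, 7.73 and 2.80. Old KO was the lowest by a ratio of 0.363 (0.229 to 0.575) to old WT, a difference of -1.20. Young WT did not pair with it, at a ratio of 1.77 (1.1 to 2.87) to old KO. Icam1, which lies 575 bases from Icam4, differed the other way at both times, at 16.7, 11.9, 13.5 and 16.1. The relative Icam2 stood at 8.20, 7.40, 8.89 and 8.39.

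Epor (ENSMUSG00000006235, chromosome 9, 21958899 to 21963576), the receptor whose signal keeps colony-forming erythroid cells alive, stood at 9.07, 15.2, 16.5 and 6.55. It was the only member highest in old WT, although the interval of its ratio of 1.08 to young KO ran from 0.856 to 1.37. The KO difference was 0.69 in young and -1.21 in old cells, where the ratio was 0.397 (0.293 to 0.539). Swsap1, 628 bases away, stood at 4.41, 4.70, 5.59 and 6.37. Of 23 measured genes of a list of erythropoietin signalling, 1 was 2-fold higher and none lower in young KO, with 12 above and 11 below 0 and a median of 0.04. That gene was Spry1, an inhibitor of Ras signalling, not listed in young WT and at 3.66, 7.69 and 8.99 in young KO and the old libraries. In old KO none passed 2-fold, 15 lay above 0 and the median was 0.20. Jak2, the kinase bound to the receptor, stood at 19.0, 24.1, 22.0 and 19.8. Ptpn6, the phosphatase that ends the signal, stood at 14.7, 20.7, 20.6 and 37.7, and Socs3, a feedback inhibitor, at 6.60, 5.86, 16.0 and 27.9. Pim1, a kinase induced by the signal, was at 125, 138, 154 and 238. These 3 were highest in old KO, whereas Cish, another induced inhibitor, was lowest there, at 1.72, 1.92, 1.52 and 0.938.

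**Figure D1:**
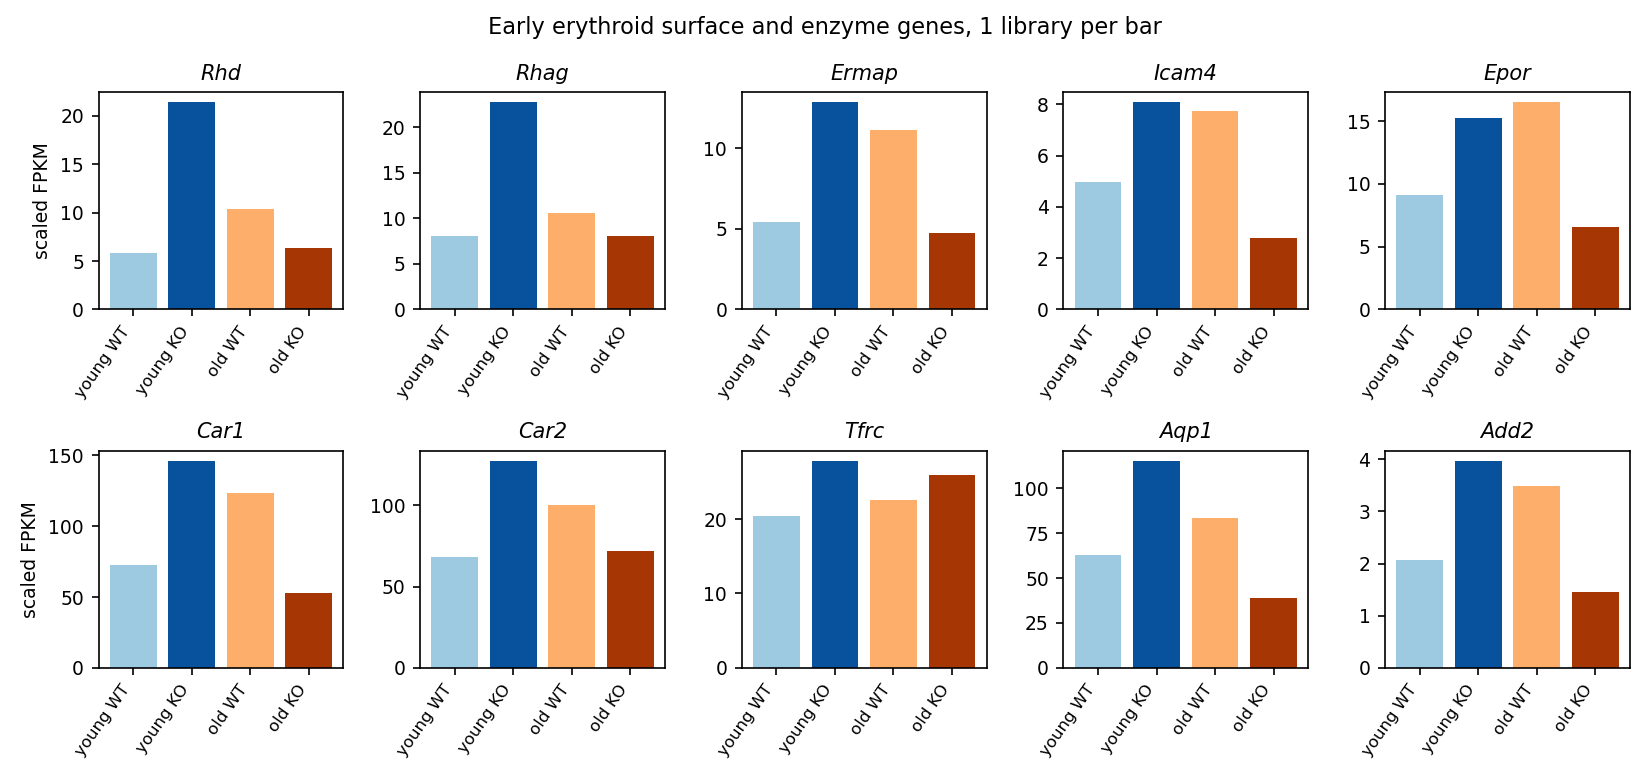
Scaled FPKM of each of the 10 genes (vertical axes, each from 0 with its own range) in the 4 libraries, 1 library per bar and no error bar because no group has replicates. Young KO is the highest bar for 9 genes, from 3.97 for Add2 to 146 for Car1, and old WT is the highest for Epor at 16.5.

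The carbonic anhydrases were the most abundant members. Car1 (ENSMUSG00000027556, chromosome 3, 14766216 to 14808368), the isozyme typical of erythroid precursors, stood at 72.4, 146, 123 and 52.6. It exceeded 95.7% or more of all measured genes in each library, and old KO was the low value. Its ratio of 2.02 (1.84 to 2.21) in young cells put it right at the 2-fold limit, and its ratio of 0.427 (0.383 to 0.476) in old cells gave a difference of -1.21. Car2 (ENSMUSG00000027562, chromosome 3, 14886273 to 14900770), the faster isozyme, which osteoclasts and other cells also use, stood at 68.2, 127, 100 and 71.8. Its young difference of 0.89 resembled that of Car1, whereas its old difference was -0.48. The Car1 to Car2 ratio was 1.06, 1.15, 1.23 and 0.732, and old KO was the only library with more Car2 than Car1 per kilobase. Among the other carbonic anhydrase genes none reached 5. Car13, another cytosolic isozyme, stood at 4.78, 4.07, 4.29 and 3.34, and Car15 at 1.3, 3.43, 1.87 and 1.59. Of the osteoclast markers, 4 of 7 were listed in no library, and Acp5, the only one listed in the young libraries, stood at 4.38, 9.65, 6.05 and 4.98.

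Tfrc (ENSMUSG00000022797, chromosome 16, 32608920 to 32632794), the transferrin receptor, which any dividing cell uses but erythroid cells need most, stood apart from the other members. Its values were 20.4, 27.8, 22.6 and 25.9. The 4 libraries lay within a ratio of 1.36, both KO libraries were above their WT, and the intervals of all 3 ratios between neighbours in the order included 1. The KO to WT ratio was 1.36 (1.13 to 1.64) in young cells and 1.14 (0.946 to 1.38) in old cells. Its differences of 0.43 and 0.19 had the same sign at both times, as for no other member. The 10 cycling genes summed to 416, 437, 434 and 463. Among them Mki67 stood at 51.6, 56.6, 81.8 and 92.9, which the list as a whole did not follow. Between WT libraries 4 of the 10 were higher and 6 lower in old cells, with a median of -0.09. Between KO libraries the split was the same, with a median of -0.07. Of the 21 genes of iron uptake and storage, 1 was 2-fold higher and none lower in young KO, with 16 above 0 and a median of 0.24. In old KO none passed 2-fold and the median was -0.02. Slc11a2, which carries iron out of the endosome that the receptor enters, stood at 6.46, 10.3, 7.38 and 3.90, and Steap3, the reductase that prepares that iron, at 4.93, 6.68, 5.4 and 3.42. Both were highest in young KO and lowest in old KO, unlike Tfrc. Ncoa4, which delivers ferritin for breakdown, was the gene past 2-fold, at 2.24, 6.29, 1.71 and 2.06.

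Aqp1 (ENSMUSG00000004655, chromosome 6, 55336432 to 55348555), the water channel that carries the Colton blood group, stood at 62.7, 115, 83.3 and 39.0. All 4 values were separated by more than counting error, with old KO at 0.468 (0.412 to 0.532) of old WT. Differences were 0.87 and -1.08. Endothelial cells also make Aqp1. Their 9 markers summed to 24.9 to 28.6, with Pecam1, which blood cells share, at 13.3, 10.3, 9.89 and 14.1, Plvap at 1.17, 1.29, 3.14 and 1.35, and Cdh5 and Kdr either not listed or below 1. Their part in the Aqp1 values was not tested. Of the other aquaporin genes, Aqp9 stood at 3.78, 3.83, 3.69 and 1.98, and Aqp2, Aqp3, Aqp4, Aqp5, Aqp7 and Aqp8 were listed in no library. Add2 (ENSMUSG00000030000, chromosome 6, 86028681 to 86124409), the beta adducin of red cells and neurons, was the least abundant member, at 2.07, 3.97, 3.48 and 1.45. Young KO and old WT were again the higher pair, but the intervals of all 3 ratios between neighbours included 1. The young KO to WT ratio was 1.92 (1.12 to 3.3). The old KO to WT ratio was 0.415 (0.216 to 0.797), and its difference of -0.87 was under 2-fold on the scale with 1 added. Of the widely expressed adducins, Add1 stood at 9.08, 6.24, 5.62 and 8.02, the other way at both times, and Add3 at 22.8, 20.6, 20.8 and 19.7.

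In young cells all 10 genes were higher in KO than in WT (50.5% of all genes were), with differences from 0.43 (Tfrc) to 1.71 (Rhd) and a median of 0.88, where the median of all measured genes was 0.00. Rhd, Rhag, Ermap and Car1 were 2-fold higher, 4 of 10, against 1.02% of all genes, and 9 were 1.5-fold higher, against 4.13%. Car1 lay just inside the 2-fold limit, and the count was 3 under each of 3 other scalings. No member was lower (0.701% of all genes were 2-fold lower). In old cells 9 of 10 were lower in KO (49.7% of all genes), from -0.34 (Rhag) to -1.21 (Epor and Car1), with Tfrc at 0.19 and a median of -0.97 against 0.00 for all genes. Ermap, Icam4, Epor, Car1 and Aqp1 were 2-fold lower, 5 of 10, against 2.66% of all genes, and 7 were 1.5-fold lower, against 6.48%. None was 2-fold higher (1.63% of all genes). With a pseudocount of 5 the counts were 2 in each comparison. Fewer erythroid cells in a library and less RNA of these genes per cell cannot be told apart in bulk RNA.

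The members most affected differed in part between the 2 times. Rhd and Rhag led the young differences and were under 2-fold in old cells. Icam4 and Epor, at 0.60 and 0.69, were under 2-fold in young cells and among the largest in old cells. A positive young and negative old difference was found in 9 of 10 members, against 24.2% of 11873 genes measured in both comparisons. The old difference was lower than the young one by 1 or more in 9, against 3.74%, and for these the gap ran from -1.37 (Car2) to -2.34 (Rhd). Ermap and Car1, 2 of 10, were 2-fold higher in young and 2-fold lower in old KO, against 0.345%. With a pseudocount of 5 the gap of Add2 was -0.74, so 8 members reached 1, and at a filter of 5 Add2 was not measured. That gap has no test with 1 library per group.

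**Figure D2:**
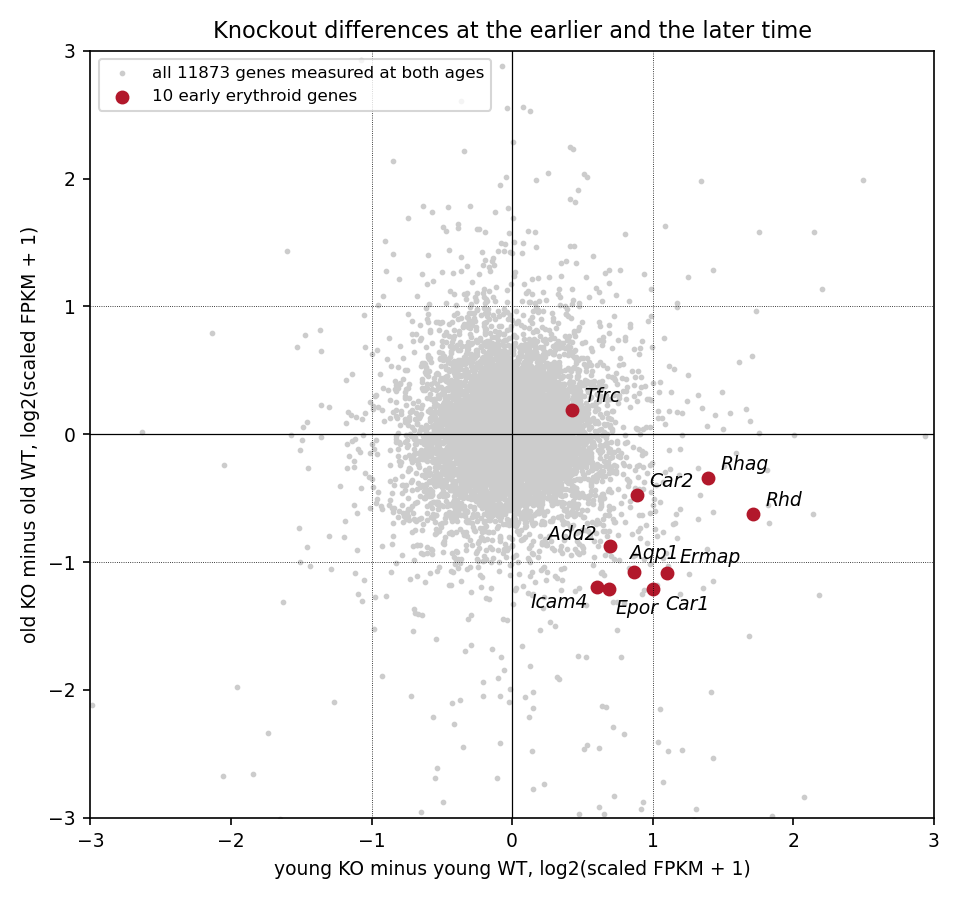
Difference between KO and WT at 4 weeks (horizontal) and at 8 months (vertical) after pI-pC, both on the log2(scaled FPKM + 1) scale, for 11873 genes in grey and the 10 genes in red; dotted lines mark 2-fold, and 97 grey genes lie outside the axes. Of the red points, 9 sit in the lower right quadrant and Tfrc, at 0.43 and 0.19, in the upper right.

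Across the 4 libraries, young KO was the highest for 9 of 10 members (25.5% of all 13014 genes measured), old KO the lowest for 6 (27.4%) and young WT the lowest for the other 4, Rhd, Rhag, Car2 and Tfrc (25.3%). Summed over the 10 genes, the levels were 259, 501, 389 and 219. Old KO and young WT were thus closer to each other than either was to its own age partner. Between WT libraries all 10 members were higher in old than in young cells, from 0.14 (Tfrc) to 0.91 (Ermap), with a median of 0.55 (49.2% of all genes were higher). None reached 2-fold, against 4.22% of all genes, and 4 reached 1.5-fold, against 9.93%. Between KO libraries all 10 were lower in old cells (50.2% of all genes), with a median of -1.27, and 8 were 2-fold lower, against 2.24%. Car2 at -0.82 and Tfrc at -0.10 were the exceptions. These age comparisons use the same libraries as the KO comparisons and add no independent evidence. Of the 30 pairs of neighbouring libraries in the members' orders, 15 had a ratio whose counting interval included 1, a count that the fragment size assumed for the old libraries can change.

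Other genes of early erythroid cells followed the members in part. Of 30 further genes of early erythroid progenitors, 5 were 2-fold higher in young KO (1.02% of all genes) and none lower (0.701%). There 27 lay above 0 (50.5% of all genes) and the median was 0.60. In old KO 1 was 2-fold lower (2.66% of all genes), 26 lay below 0 (49.7% of all genes) and the median was -0.36. The 5 were Blvrb, Ces2g, Cited4, Cpox and Slc38a5, and the last was also the gene 2-fold lower in old KO. Among them Cited4, a transcriptional coactivator, stood at 1.73, 8.67, 5.98 and 3.30, Slc38a5, a glutamine transporter, at 5.17, 11.6, 9.21 and 3.50, and Cpox, a heme synthesis enzyme, at 18.1, 42.7, 31.8 and 20.9. Of 32 measured genes of the erythroid membrane and skeleton, 2 were 2-fold higher in young KO, the Kell antigen gene Kel among them, 24 lay above 0 and the median was 0.28. In old KO 25 of 29 lay below 0, with 1 2-fold lower (Sema7a, at 5.81 and 1.78) and a median of -0.27. In both lists, 1 gene 2-fold lower in old KO is near the share of all genes. Kel stood at 5.14, 11.4, 5.31 and 3.44. The red cell beta spectrin gene Sptb, at 4.56, 8.24, 4.29 and 2.29, was, like Add2, highest in young KO and lowest in old KO. Sptb, Ces2g, Jak2, Pim1, Car13, Car15, Aqp9, Cish, Plvap, Mki67 and Kdr were picked from their lists after their values were seen.

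Gata1 stood at 15.4, 25.0, 17.3 and 8.50 and Klf1 at 12.3, 28.7, 20.6 and 12.4. Of 21 erythroid transcription factor genes, Klf1 alone was 2-fold higher in young KO, and the list median was 0.13, with 16 above 0. In old KO the median was -0.07, and Spi1, a myeloid factor that opposes GATA1, was the 1 gene 2-fold higher, at 14.9, 11.7, 11.1 and 24.3. Nfe2, which is shared with megakaryocytes, stood at 12.8, 13.1, 5.99 and 10.9. Of the other carbonic anhydrase genes, 4 were measured in young and 5 in old cells, with medians of -0.12 and -0.04. Of the Rh, ICAM, butyrophilin, aquaporin and adducin relatives, 6 and 5 were measured, with medians of -0.13 and -0.07. No gene of either list differed by 2-fold at either time.

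**Figure D3:**
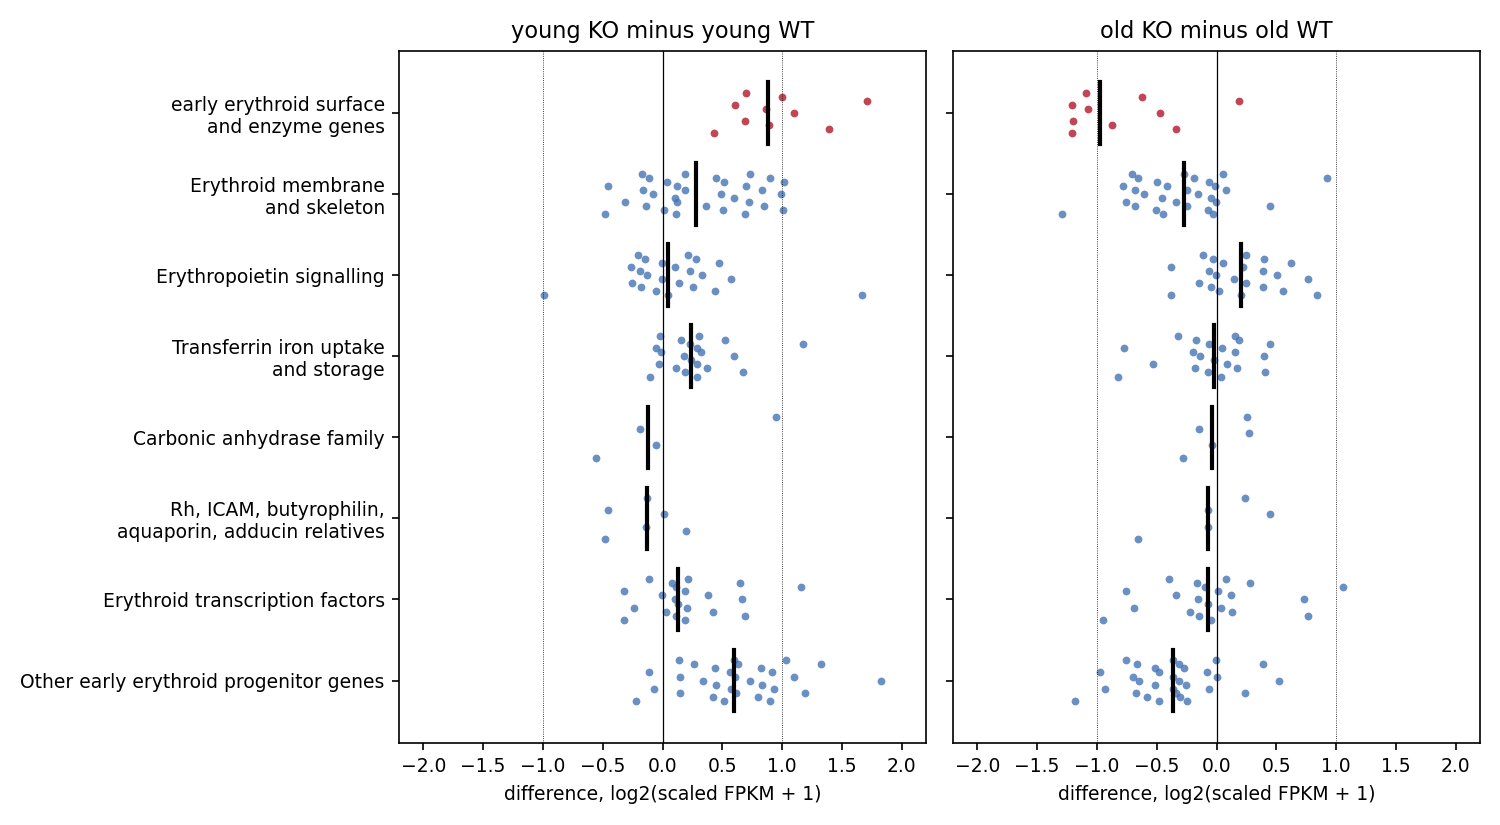
Difference between KO and WT (horizontal, log2(scaled FPKM + 1)) for each measured gene of the 10 members (red) and of 7 lists of related genes (blue), at 4 weeks (left) and 8 months (right); black bars are list medians and vertical scatter within a row carries no value. The members' medians, 0.88 and -0.97, lie farther from 0 than those of the lists, of which other early erythroid progenitor genes come nearest at 0.60 and -0.36.

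The genes with the pattern closest to the members were sought among 8008 genes with a value of 5 or more in some library, by Euclidean distance between profiles over the 4 libraries, each centred on its own mean. The median profile of the members was -0.30, 0.58, 0.29 and -0.60. The 5 nearest named genes other than members were Ank1, Fam132a, Vkorc1l1, Spire1 and Cldn13, at distances from 0.115 to 0.141. Ank1, the ankyrin that anchors spectrin to the red cell membrane, stood at 2.61, 5.70, 3.96 and 1.93. Fam132a, a secreted protein of the C1q and TNF family, stood at 31.4, 60, 43.8 and 24.6, and Cldn13, a claudin of mouse erythroid cells, at 8.28, 14.4, 12.0 and 5.62. Vkorc1l1, a relative of the vitamin K recycling enzyme, stood at 4.55, 9.96, 7.80 and 3.36, and Spire1, an actin nucleator, at 5, 9.10, 7.75 and 4.07. Ermap was the member nearest to the profile, at rank 15 of 8008, followed by Car1 at 19. The profile was built from the members, so their own ranks are partly set in advance. Rhag ranked 146, Rhd 242 and Tfrc 2034, and Add2 was too low to be ranked. With 4 libraries, such distances describe these libraries only.

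Late red cell genes differed in the same direction as the members in some comparisons and not in others. The 12 late genes, globins, heme enzymes and membrane genes of hemoglobin-filled cells, summed to 198, 464, 58.4 and 84.5. Some of them, such as Slc4a1, are also in the membrane list. In young cells they were higher in KO along with the members, with 11 of 12 above 0 and a median of 0.63. In old cells 8 of 11 were above 0 in KO, where 9 of 10 members were below. Hbb-bs, a beta globin, stood at 46.8, 220, 12.2 and 28.1. In WT the late genes were lower in old than in young cells, with 11 of 12 below 0 and a median of -1.06, while all 10 members were above 0. In KO all 12 were lower in old than in young cells, with a median of -1.71, as were all 10 members. Their part in the members' values was not tested.

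Markers of other cells moved between the same libraries. Neutrophil and monocyte markers summed to 772, 719, 969 and 1995, with 11 of 13 at least 2-fold higher in old KO than in old WT. Those of plasma and B cells summed to 53.6, 65.0, 2212 and 220, and Jchain alone, which encodes the antibody joining chain, reached 1891 in old WT. Mast cell, basophil and eosinophil markers summed to 635, 575, 290 and 128, and those of megakaryocytes, which share their precursor with red cells, to 62.2, 63.1, 49.6 and 32.2. The 9 markers found of erythroid island macrophages summed to 13.9, 11.3, 16.8 and 9.29, and Spic and Mertk were listed in no library. LSK markers summed to 287, 252, 240 and 243. Of the depleted lineage antigens, Cd4, Cd8a and Ms4a1 were listed in no library, and the others summed to 4.89, 3.38, 7.54 and 16.1. Itgam, the only one listed in young cells, stood at 4.89, 3.38, 5.45 and 10.9. All 4 antigens measured in old cells were above 0 in KO, with a median of 0.71. What these cells contributed to the members' differences was not tested.

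**Figure D4:**
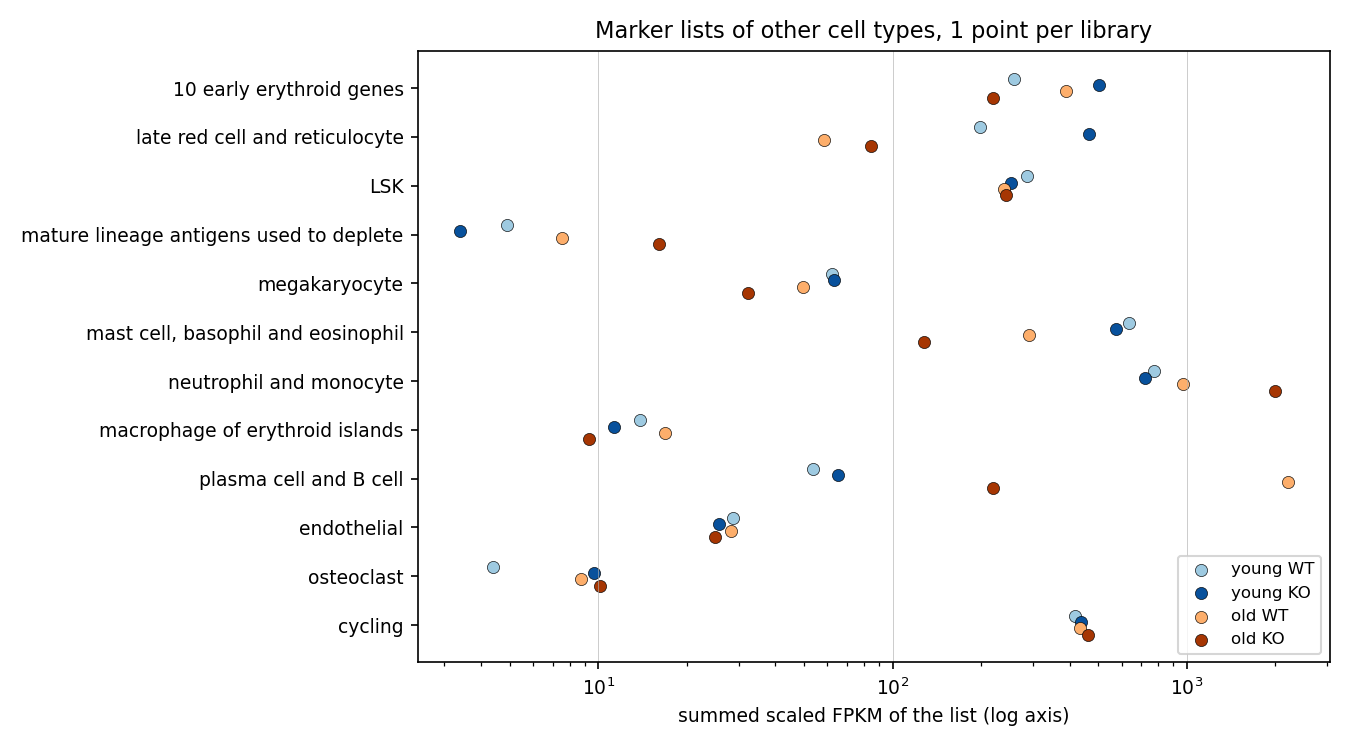
Summed scaled FPKM (horizontal, log axis) of the 10 genes and of 11 marker lists of other cells, 1 point per library. The 10 genes run from 219 in old KO to 501 in young KO. No marker list repeats their full order of libraries, though megakaryocyte markers also run from old KO (32.2) to young KO (63.1). Plasma and B cell markers reach 2212 in old WT and neutrophil and monocyte markers 1995 in old KO.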

How the data were processed

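Total RNA from sorted LSK cells was sequenced in 4 libraries, made from 100 ng of RNA per the labels' protocols. The 2 bisulfite samples of young cells were not analysed here. The authors deposited 1 FPKM per gene and library, per the file headers. Builds and tools named in the submitters' processing notes include mm10, GRCm38, HISAT2 2.0.4 and StringTie 1.3.0 with no roles stated. No listed gene overlapped a member, which matters because the annotation and strand setting are not given in the sources used here. In RefSeq the pseudogene Gm16399, listed in no library, overlaps Car1 by 418 bases. Each file lists only FPKM of 0.5 or more, and an unlisted gene was set to 0.5.

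Values were summed per symbol (14468 identifiers, 14455 symbols) and divided by factors (0.979 to 1.06) found by the median of ratios across the 10935 genes that reached an FPKM of 1 in every library. A gene entered a comparison if either library had a scaled value of at least 1. Short genes (locus under 1500 bp) had FPKM times length at multiples of a step of 0.0522 to 0.0560 (61.6% to 71.3% of values within 0.02 steps, where chance gives 4%). Odd multiples made up 1.42% and 1.11% of these in the young libraries and 54.0% and 58.0% in the old ones, where 1 step may be 1 fragment. A pair of steps was taken as 1 counted fragment in every library, the wider choice for the old ones, so that 1 kb at an FPKM of 1 holds 8.93 to 9.57 fragments. Members, lists and tests were chosen with earlier results of these data known. Named genes are the members, Setd2, Kit, Ly6a, up to 4 genes per list with the largest KO difference at a value of 5 or more, the 5 nearest in pattern, genes within 1000 bp of a member, and high or defining markers; others are identified in the text, and some are not reported here. Python 3.11.15, numpy 2.4.6 and pandas 2.3.3 were used. The scaling and the 2-fold calls were tried on simulated data, and the estimate of fragment size was not. Alternatives were pseudocount, unlisted value, scaling, filter and threshold.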

Additional observations from a re-analysis of the deposited data

Results flagged for a closer look

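The KO difference had opposite signs at 4 weeks and 8 months, and differed by 1 or more on the log2 scale, for 9 of the 10 members. With 1 library per group the difference between the times was not tested. The old minus young difference was -2.34 for Rhd, -2.21 for Car1, -2.19 for Ermap, -1.94 for Aqp1, -1.90 for Epor, -1.80 for Icam4, -1.73 for Rhag, -1.57 for Add2 and -1.37 for Car2. The members' median differed by -1.85. Among the related genes named, it was -2.52 for Cited4, -2.21 for Slc38a5, -1.99 for Blvrb, -1.85 for Klf1, -1.78 for Cpox, -1.61 for Gata1, -1.51 for Kel and -1.37 for Slc11a2. It ran the other way for Spi1, at 1.38, and for the signalling adaptor gene Grb2, at 1.21.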

How the results depend on the processing

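No member's difference changed sign in any of the 4 comparisons, or in the gap between the 2 KO comparisons, under any alternative tried. Members' values under another unlisted value or filter could not move, because every member was listed in every library. Counting those, 394 of 395 such values stayed within the counting interval at 1 kb of the values reported. The exception was Rhd in young cells, at 1.28 with a pseudocount of 5. With that pseudocount the members 2-fold higher in young KO numbered 2, those 2-fold lower in old KO 2 and those 2-fold lower in old than in young KO 4, with a median of -0.84 in the last comparison and of -0.58 (against -0.97) for old KO against old WT. The old minus young gap of Add2 was -0.74 with it, against -1.57, and still lay within its wide counting interval. A pseudocount of 0.1 gave 1 member (Ermap) 2-fold higher in old than in young WT, and 6 members 2-fold lower in old KO than in old WT. A threshold of 1.5-fold gave 9 members higher in young KO and 4 higher in old WT than in young WT. It gave 7 lower in old KO than in old WT and 9 lower in old than in young KO. Without scaling, which moved the median of all genes to -0.10 in the young comparison and -0.11 between WT libraries, all genes split into 99 higher and 118 lower in young KO, against 126 and 87 with it. In the order young KO against WT, old KO against WT, old against young WT and old against young KO, the genes 2-fold higher over all genes numbered 126, 204, 531 and 620, and those 2-fold lower 87, 332, 167 and 281. A pseudocount of 0.1 gave 361, 433, 855 and 983 higher and 273, 639, 453 and 680 lower. A pseudocount of 5 gave 32, 54, 308 and 270 higher and 12, 207, 48 and 52 lower. Setting unlisted genes to 0 gave 228 and 178 in young KO, 332 higher in old KO, and 298 and 431 lower in the age comparisons. A filter at 5 gave 81 and 44 in young KO, 123 higher in old KO, and 103 and 184 lower in the age comparisons. At 1.5-fold there were 512, 687, 1248 and 1548 higher and 452, 809, 739 and 1004 lower. For depth, the lowest member value, Add2 in old KO, corresponds to 12.8 fragments per kb, a counting error of 28.0%. No paired analysis was possible because each group has 1 library and no replicate number.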
